A study of Mus musculus with 7 samples.

Results

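The integrin and laminin genes were chosen by name alone. They are all genes of the array whose symbol is Itga or Itgb followed by digits, by digits and a letter as in Itga2b, or by a letter, or Lama, Lamb or Lamc followed by digits. The rule gave 36 of the 22180 genes measured, namely 17 integrin alpha genes, 9 integrin beta genes and 10 laminin chain genes. Itgbl1, which encodes a secreted protein related to beta subunits, was read as outside the rule, and Itga10 was not analysed here.

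Integrins are receptors that span the cell membrane, each built of an alpha and a beta subunit, and they tie the matrix outside the cell to the actin skeleton inside it. Laminins are the large cross-shaped proteins of basement membranes, each built of an alpha, a beta and a gamma chain, and they are ligands of several integrins. In mouse embryonic stem cells and the early embryo, laminins with alpha 1 or alpha 5 chains and the laminin receptor of alpha 6 and beta 1 are the best known members. Fibroblasts use fibronectin and collagen receptors such as alpha 5 beta 1, alpha v with its beta partners, and alpha 11 beta 1.

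RNA was measured on 7 single-colour arrays of mouse cells, all labelled as strain 129. Embryonic stem cells (ESC) of wild-type (WT) genotype had 1 array. Induced pluripotent stem cells (iPSC), which are somatic cells reprogrammed to an ESC-like state, had 2 WT arrays and 2 arrays with a knockout (KO) of Nanog. Mouse embryonic fibroblasts (MEF) had 1 WT and 1 Nanog KO array. The titles call the iPSC arrays biological replicates but do not say whether they come from separate lines, so the p-values may measure only the spread between these samples. The knockout allele is not named, and the labels do not say which of ESC, 2i/LIF and MEF media each sample had, so medium and genotype cannot be told apart in iPSC. Nanog, the pluripotency factor that was deleted, had log2 intensities of 12.73 in WT ESC, 12.84 and 12.76 in the WT iPSC pair, 7.50 and 7.44 in the KO iPSC pair, 6.53 in WT MEF and 6.42 in KO MEF. Both KO iPSC arrays lay far below every WT pluripotent array.

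All values below are log2 intensities of 1 probe set per gene, and levels of different genes are not compared because probe sets differ in brightness. Background was gauged by 1394 genes of olfactory and vomeronasal receptors, whose 95th percentile lay between 6.30 and 6.50 on the 7 arrays. Of the 36 genes, 24 lay above it on all 7 arrays, 7 on some and 5 on none. The 5 were Itgad, Itgae, Itgax, Itgb2l and Itgb6, so no fold is given for them. Between 26 and 29 of the 36 were above background on each pluripotent array, 31 in WT MEF and 30 in KO MEF, against 61.0% to 63.7% of all genes on each array.

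**Figure D1:**
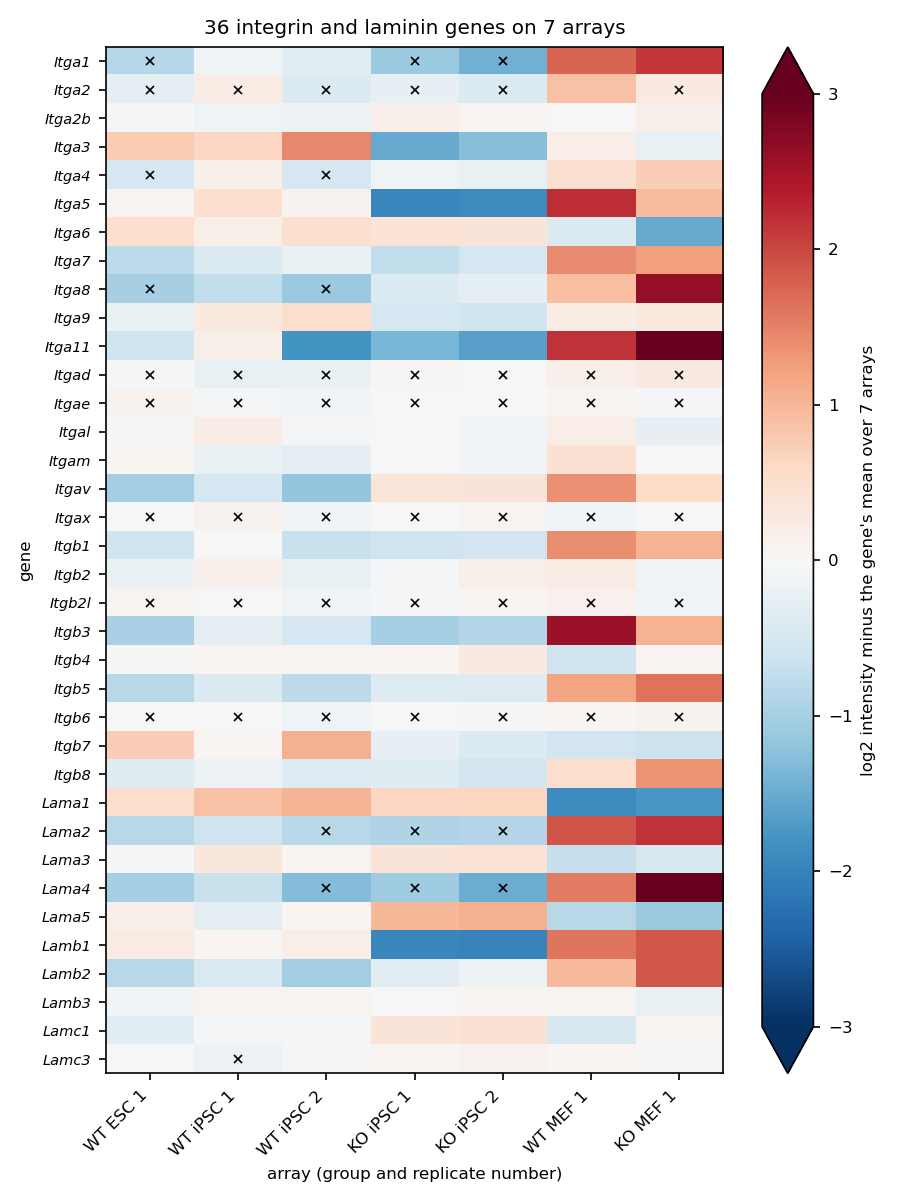
Log2 intensity of each of the 36 genes (rows) on each of the 7 arrays (columns), less the gene's mean over the 7 arrays, with a cross where the value did not exceed the background measure. The 5 rows crossed throughout are Itgad, Itgae, Itgax, Itgb2l and Itgb6, and Itga5 and Lamb1 are darkest blue in both KO iPSC columns.

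The central comparison of the series set the 2 KO iPSC arrays against the 3 WT pluripotent arrays, that is WT ESC and both WT iPSC. Itga3 and Itga5, alpha subunits of a laminin receptor and of the main fibronectin receptor, and the laminin beta chain Lamb1 fell by more than 4-fold. Itgav, the alpha subunit shared by the vitronectin receptors, and the laminin chains Lama5 and Lamc1 rose, as did Itga8. In limma 4 of the 36 genes rose, 3 fell and 29 did not pass an adjusted p of 0.05. The 7 that passed make 19.4% of the members, close to the 15.7% of all genes that passed, so the number says nothing particular about these families.

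The 7 genes were split by family: 4 of 17 integrin alpha genes, 0 of 9 integrin beta genes and 3 of 10 laminin genes. For the beta genes, 1 had an unadjusted p under 0.05. The median difference over the 36 was 0.0071, beside 0.0338 over all genes. Among all genes 6.89% were higher and 8.81% lower, and these shares were 8.61% and 7.30% with median-centred arrays.

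**Figure D2:**
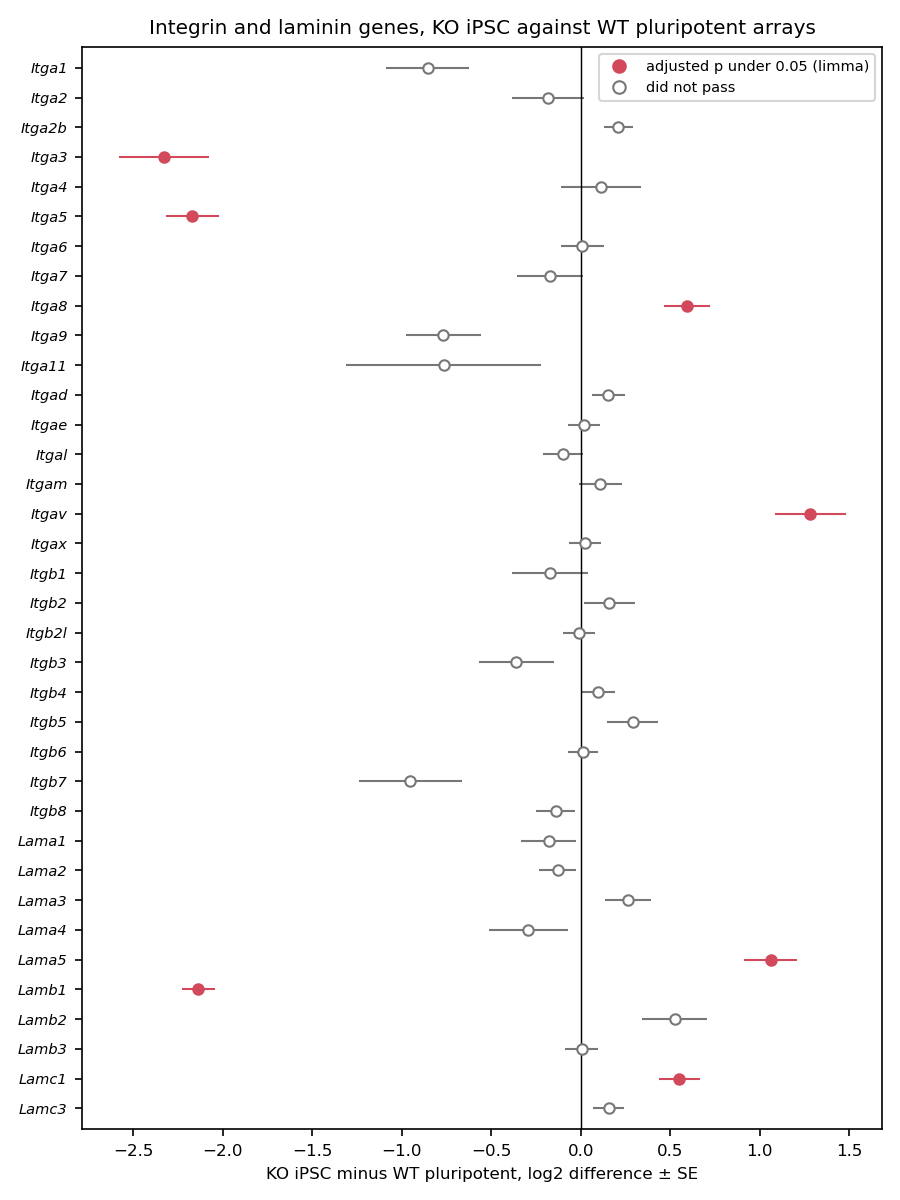
Difference of the mean log2 intensity between the 2 KO iPSC arrays and the 3 WT pluripotent arrays for each of the 36 genes, with bars of 1 standard error of the limma fit. Filled points passed an adjusted p of 0.05, and they are Itga3, Itga5 and Lamb1 left of 0 and Itga8, Itgav, Lama5 and Lamc1 right of it.

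Among the alpha subunits that pair with beta 1 to bind laminin, Itga3 stood at 9.32 in WT ESC, 9.16 and 9.98 in the WT iPSC pair, 7.05 and 7.27 in KO iPSC, 8.74 in WT MEF and 8.33 in KO MEF. Both KO iPSC arrays lay below every other array, the fibroblasts included. Against the WT pluripotent arrays Itga3 was 5.03-fold lower (log2 -2.33, SE 0.25, 2 arrays against 3, limma adjusted p = 0.00449). Itga6, whose product with beta 1 is the laminin receptor usually seen on pluripotent cells, stood at 11.03 in WT ESC, 10.71 and 11.004 in the WT iPSC pair and 10.94 and 10.91 in KO iPSC. The KO values lay inside the WT range, with a difference of 0.01 (SE 0.12). Itga7, known as the laminin receptor subunit of muscle, differed by -0.17 (SE 0.19) and its groups overlapped.

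Among the subunits that bind the RGD sequence of fibronectin and vitronectin, Itga5 stood at 10.50 in WT ESC, 10.92 and 10.51 in the WT iPSC pair, 8.45 and 8.50 in KO iPSC, 12.62 in WT MEF and 11.37 in KO MEF. The KO iPSC arrays were the lowest of the 7 and the fibroblasts the highest. The gene was 4.50-fold lower in KO iPSC (-2.17, SE 0.15, limma adjusted p = 0.00132).

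Itgav went the other way, with 10.15 in WT ESC, 10.66 and 10.01 in the WT iPSC pair, 11.55 and 11.56 in KO iPSC, 12.56 in WT MEF and 11.75 in KO MEF. Both KO iPSC arrays lay above all WT pluripotent arrays and below both fibroblast arrays, next to KO MEF. The gene was 2.43-fold higher in KO iPSC (1.28, SE 0.20, limma adjusted p = 0.0122). A dim further probe set of Itgav stayed below background on every array and differed by 0.32.

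Itga8, an alpha subunit that binds nephronectin and fibronectin, stood at 6.23 in WT ESC, 6.48 and 6.11 in the WT iPSC pair and 6.82 and 6.92 in KO iPSC. The WT values straddled background and the KO values lay just above it. The difference was 0.59 (SE 0.13, limma adjusted p = 0.0312), and both KO iPSC arrays lay below the 8.13 of WT MEF and the 9.86 of KO MEF. Itga2b, the alpha subunit of the platelet fibrinogen receptor, differed by 0.21 (SE 0.08) and did not pass.

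The collagen-binding alpha subunits Itga1, Itga2 and Itga11 did not pass. Itga1 stood at 6.09 in WT ESC, 6.82 and 6.62 in the WT iPSC pair and 5.82 and 5.49 in KO iPSC, where it was below background on both arrays. Its fitted difference was -0.85 (SE 0.23, limma adjusted p = 0.0625), but the fold that can be measured above background is at least 1.03. Itga11 stood at 7.89 in WT ESC, 8.67 and 6.70 in the WT iPSC pair and 7.12 and 6.86 in KO iPSC, so the KO values lay inside a wide WT range (-0.77, SE 0.54). Itga2 was below background on all pluripotent arrays.

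Itga4 and Itga9, close relatives that bind VCAM-1, fibronectin and tenascin among other ligands, gave 0.12 (SE 0.22) and -0.77 (SE 0.21). For Itga9 both KO arrays, 6.89 and 6.84, lay below the WT values of 7.23, 7.71 and 7.95, but it did not pass (limma adjusted p = 0.0641). Of the leukocyte alpha subunits above background, Itgal and Itgam differed by -0.10 (SE 0.11) and 0.11 (SE 0.12).

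No beta subunit passed. Itgb1, the partner of most alpha subunits named here, stood at 10.50 in WT ESC, 11.10 and 10.41 in the WT iPSC pair and 10.49 and 10.50 in KO iPSC (-0.17, SE 0.21), with the KO values inside the WT range. Itgb5, a partner of alpha v in binding vitronectin, stood at 9.32, 9.74 and 9.37 in the WT arrays and 9.77 and 9.76 in KO iPSC (0.29, SE 0.14). Itgb3, also a partner of alpha v, differed by -0.36 (SE 0.21), and Itgb8 by -0.14 (SE 0.11).

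Itgb7, a partner of alpha 4 and alpha E on lymphocytes, stood at 7.96 in WT ESC, 7.28 and 8.29 in the WT iPSC pair and 6.97 and 6.82 in KO iPSC. The groups did not overlap, but the WT iPSC arrays were 1.003 apart and the difference of -0.95 (SE 0.29) did not pass (limma adjusted p = 0.0813). Itgb4, the hemidesmosome partner of alpha 6, differed by 0.10 (SE 0.09) and Itgb2, the common beta subunit of leukocytes, by 0.16 (SE 0.14).

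Among the laminin chains, Lamb1 had the smallest p-value of the 36 genes. It stood at 9.67 in WT ESC, 9.47 and 9.61 in the WT iPSC pair, 7.47 and 7.42 in KO iPSC, 11.01 in WT MEF and 11.27 in KO MEF. Its 3 WT pluripotent arrays had an SD of 0.10, and both KO iPSC arrays lay below all other arrays. It was 4.40-fold lower (-2.14, SE 0.09, limma adjusted p = 0.000419). Lamb2, the other broadly used beta chain, stood at 8.13, 8.50 and 7.92 in the WT arrays and 8.62 and 8.80 in KO iPSC, higher without overlap, but its 0.53 (SE 0.18) did not pass (limma adjusted p = 0.112). Lamb3, the beta chain of epithelial laminin, differed by 0.00 (SE 0.09).

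Lama5, an alpha chain of embryonic basement membranes, stood at 10.07 in WT ESC, 9.62 and 9.97 in the WT iPSC pair, 10.91 and 10.99 in KO iPSC, 9.08 in WT MEF and 8.80 in KO MEF. Both KO iPSC arrays were above all other arrays. It was 2.09-fold higher (1.06, SE 0.15, limma adjusted p = 0.00886). Lamc1, the gamma chain of most laminins, stood at 10.80, 11.07 and 11.09 in the WT pluripotent arrays and 11.51 and 11.57 in KO iPSC, a smaller rise of 0.55 (SE 0.11, limma adjusted p = 0.028).

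Lama1, the alpha chain of the first laminin of the early embryo, stood at 9.26 in WT ESC, 9.62 and 9.75 in the WT iPSC pair and 9.35 and 9.38 in KO iPSC (-0.18, SE 0.16), with both KO arrays inside the WT range. Lama3 differed by 0.26 (SE 0.13). Lama2 and Lama4, chains of muscle and vessel laminins, were below background in KO iPSC, and Lamc3 differed by 0.16 (SE 0.09). The alpha, beta and gamma chains that pluripotent cells are known to combine therefore did not move one way, with Lamb1 lower, Lama5 and Lamc1 higher and Lama1 not past the threshold.

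**Figure D3:**
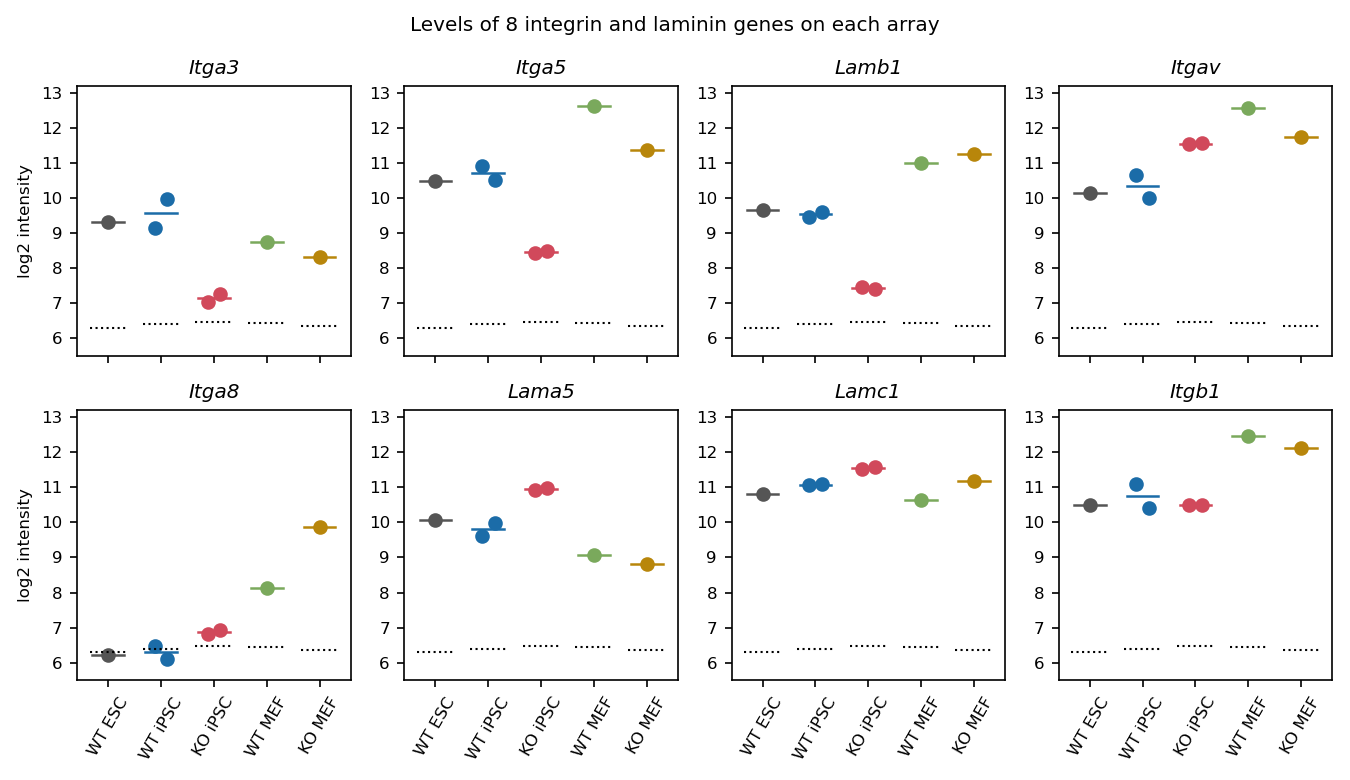
Log2 intensity of 8 genes on each array by group, with points for arrays, short lines for group means and dotted lines for the background measure. In KO iPSC, Itga3, Itga5 and Lamb1 lay below all WT pluripotent arrays, Itgav, Itga8, Lama5 and Lamc1 lay above them, and Itgb1 lay within their range.

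The KO iPSC arrays were close to each other, 0.01 apart for Itgav and 0.22 for Itga3, and most calls needed both. Without KO iPSC replicate 1, without KO iPSC replicate 2, or with both counted as 1 sample, Itga5 and Lamb1 still passed and the other 5 did not. The limma adjusted p then ran from 0.0607 to 0.0725 for Itga3, 0.0951 to 0.102 for Lama5, 0.116 to 0.123 for Itgav, 0.173 to 0.195 for Lamc1 and 0.17 to 0.211 for Itga8. Lamc1 and Itga8 also missed the threshold without WT iPSC replicate 2 (limma adjusted p = 0.0536 and 0.0741), and Itga8 without WT ESC (0.0575). With 1 KO iPSC array left, or both counted as 1, far fewer of all genes passed as well. The sizes stayed near the full ones. Without KO iPSC replicate 1 and replicate 2 they were -2.22 and -2.44 for Itga3, 1.10 and 1.02 for Lama5 and 1.29 and 1.28 for Itgav. For Lamc1 they were 0.58 and 0.52, and for Itga8 0.65 and 0.54.

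Fibroblast marker signal moved with these groups. The summed intensity of 23 fibroblast marker genes was 22277 in WT ESC, 37850 and 16456 in the WT iPSC pair, 8592 and 8708 in KO iPSC, 86559 in WT MEF and 113058 in KO MEF, and 16 to 21 of the 23 were above background on each pluripotent array. In KO iPSC 5 of the 23 fell and 0 rose, with a median difference of -0.88. Of all genes 8.81% fell and 6.89% rose. In an array of bulk RNA, fewer cells of a type and less RNA per cell cannot be told apart. Itga5 and Lamb1 were higher in both MEF arrays than in any WT pluripotent array, whereas Itga3 was lower in both. WT iPSC replicate 1 was the pluripotent array with the highest fibroblast sum. Without it the differences were -2.03 (SE 0.08) for Itga5, -2.19 (SE 0.08) for Lamb1 and -2.49 (SE 0.24) for Itga3, and all 3 passed. The WT arrays left, at 22277 and 16456, still had more fibroblast signal than both KO iPSC arrays. The part of that signal in these differences was not tested. Without WT iPSC replicate 1, 11 members passed, and the share of all genes that passed was 18.8% in place of 15.7%. The added members were Itgb5 (0.42), Itgb7 (-1.23), Lama3 (0.37) and Lamb2 (0.68).

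Markers of other cell types were counted in the same comparison, in which 6.89% of all genes rose and 8.81% fell. Epithelial markers fell in 4 of 11 cases and 0 rose, with summed intensities of 11156, 7394 and 11925 in the WT pluripotent arrays and 8145 and 7925 in KO iPSC. Of 10 trophectoderm markers 1 rose and 1 fell, and their sum was 4050 to 5056 in the WT arrays against 7943 and 7876 in KO iPSC. Of 13 macrophage and leukocyte markers 2 rose and 0 fell, of 16 primitive and parietal endoderm markers 1 rose and 1 fell, and of 7 megakaryocyte and 10 endothelial markers 0 passed. Pluripotency markers fell in 4 of 15 cases, Nanog among them, and their sum was 50483 to 53322 in the WT arrays and 37752 and 37405 in KO iPSC. The part of these markers in the integrin and laminin differences was not tested.

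The start regions of the 5 genes with the largest called differences are shown because these genes moved in 2 directions. RefSeq start regions were found for 23 of the 36 genes, on build GRCm38.p6, and the 250 bases before the annotated start are printed 5′ to 3′ on the gene's strand. They lie at chr11:95076715-95076964 (minus strand) for Itga3, the upstream one of 2 listed starts, at chr15:103366792-103367041 (minus) for Itga5, at chr12:31265043-31265292 (plus) for Lamb1, at chr2:83724147-83724396 (plus) for Itgav and at chr2:180225860-180226109 (minus) for Lama5. Capitals mark matches to the GC box GGGCGG and the CCAAT box, each searched on both strands. The array files name no build, and these positions belong to the RefSeq sequences alone.
Itga3: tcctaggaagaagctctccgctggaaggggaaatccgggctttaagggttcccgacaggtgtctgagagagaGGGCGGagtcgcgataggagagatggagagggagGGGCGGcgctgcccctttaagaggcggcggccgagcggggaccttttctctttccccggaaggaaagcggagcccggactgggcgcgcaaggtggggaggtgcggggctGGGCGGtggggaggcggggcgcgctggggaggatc
Itga5: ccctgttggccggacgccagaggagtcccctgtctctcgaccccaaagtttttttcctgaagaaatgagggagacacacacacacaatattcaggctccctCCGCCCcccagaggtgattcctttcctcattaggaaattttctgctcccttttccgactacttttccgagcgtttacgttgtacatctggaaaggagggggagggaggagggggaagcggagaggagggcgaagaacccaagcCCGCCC
Lamb1: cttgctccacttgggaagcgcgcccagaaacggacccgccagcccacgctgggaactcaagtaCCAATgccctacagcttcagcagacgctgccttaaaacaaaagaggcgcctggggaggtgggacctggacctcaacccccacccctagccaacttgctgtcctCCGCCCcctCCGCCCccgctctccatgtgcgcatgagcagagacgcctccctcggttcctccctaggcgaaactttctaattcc
Itgav: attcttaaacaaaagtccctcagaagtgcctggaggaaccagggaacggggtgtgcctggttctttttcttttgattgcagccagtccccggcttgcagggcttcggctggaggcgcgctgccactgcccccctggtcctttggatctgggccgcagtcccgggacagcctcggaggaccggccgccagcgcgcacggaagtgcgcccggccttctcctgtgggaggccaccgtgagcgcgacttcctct
Lama5: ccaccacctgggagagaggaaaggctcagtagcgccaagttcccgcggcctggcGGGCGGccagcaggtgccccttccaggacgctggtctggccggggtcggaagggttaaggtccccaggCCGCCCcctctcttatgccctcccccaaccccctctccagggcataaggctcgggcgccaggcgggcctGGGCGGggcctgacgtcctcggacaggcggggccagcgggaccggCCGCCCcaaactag

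The GC box was found 3 times before Itga3, 2 times before Itga5, 2 times before Lamb1, 4 times before Lama5 and 0 times before Itgav. It occurs in 32.7% of the 32851 start regions of that length in the table. The windows of genes that fell and of Lama5, which rose, both held it. The CCAAT box was found 1 time, before Lamb1, and occurs in 33.8% of all windows. The AP-1 site TGANTCA (6.7% of all windows), the TATA box TATAAA (12.4%) and the octamer ATGCAAAT (1.6%), also searched on both strands, were not found in these 5. GC made up 67.6%, 55.6%, 62.0%, 64.4% and 72.4% of the 5 windows in the order printed, against a median of 52.4% over all windows. A match is a description of letters and shows no binding.

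Within iPSC, the 2 KO arrays were compared with the 2 WT iPSC arrays to hold the cell type the same. This comparison shares its KO arrays and 2 WT arrays with the one above, so its calls are no separate evidence. Of the 36 genes 3 rose, 6 fell and 27 did not pass (25.0%, against 16.5% of all genes, 6.93% higher and 9.55% lower). Itga3 (-2.42, SE 0.28), Itga5 (-2.24, SE 0.16) and Lamb1 (-2.09, SE 0.09) fell, and Itgav (1.22, SE 0.22), Lama5 (1.15, SE 0.14) and Lamc1 (0.46, SE 0.08) rose.

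The genes added here were collagen, tenascin and vitronectin receptor subunits. Itga1 fell, by at least 1.19-fold above background (fitted -1.06, SE 0.15). Itga9 (-0.97, SE 0.11) fell and so did Itgb3 (-0.56, SE 0.12, limma adjusted p = 0.0386). For these 3 genes the WT ESC values of 6.09, 7.23 and 6.90 were lower than both WT iPSC arrays, and for Itgb3 close to the 6.87 and 6.995 of KO iPSC. Itga8 did not pass (0.57, SE 0.14, limma adjusted p = 0.0575). With 1 KO iPSC array left out, most calls of this comparison were lost and far fewer of all genes passed. With 1 WT iPSC array left out, more members and more of all genes passed. These shifts say nothing particular about the 36 genes. Over these settings the difference ran from -2.03 to -2.45 for Itga5, -2.02 to -2.17 for Lamb1, -0.85 to -1.09 for Itga9 and -0.43 to -0.68 for Itgb3.

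The WT ESC array was set against the WT iPSC pair to see how far WT pluripotent cells differed among themselves. In limma 0 of the 36 genes passed, against 0.162% of all genes (0.0812% higher and 0.0812% lower), and 7 had an unadjusted p under 0.05. These 7 were Itga1 (fitted -0.63, SE 0.18), Itga9 (-0.60, SE 0.14), Itgb3 (-0.59, SE 0.15), Itga7 (-0.48, SE 0.15), Lama1 (-0.43, SE 0.11), Itgam (0.29, SE 0.11) and Lamc1 (-0.27, SE 0.10). Itga1 lay below background in WT ESC, so it is measured only as at least 1.34-fold lower there. For the genes with the largest genotype differences the gap was small: Itga3 -0.26 (SE 0.34), Itga5 -0.22 (SE 0.19) and Lamb1 0.13 (SE 0.12). WT ESC is a single array here, and its spread is taken from the iPSC groups. Leaving out a WT iPSC array left 1 array on each side, and then more members and more of all genes passed. The WT iPSC arrays were far apart for Itga11 (1.97), Itgb7 (1.003) and Itga3 (0.82). Itga11, Itgb1 and Itgav were higher in replicate 1, the array with more fibroblast marker signal, and Itga3 and Itgb7 higher in replicate 2.

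iPSC and MEF were compared across both genotypes, in a fit that also holds genotype, to describe the receptors and ligands of each cell type. Of the 36 genes 21 passed, 5 higher and 16 lower in iPSC, which is 58.3% against 30.7% of all genes (16.0% higher and 14.7% lower). The median difference was -0.32, beside 0.03 over all genes. By family, 9 of 17 alpha genes, 4 of 9 beta genes and 8 of 10 laminin genes passed. In the same fit 19 of 23 fibroblast markers fell and 13 of 15 pluripotency markers rose.

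Of the integrin alpha genes 8 of 17 were lower in iPSC, among them the collagen receptor subunits Itga1, Itga2 and Itga11 and the fibronectin receptor subunits Itga5, Itga8 and Itga4, whereas Itgav and Itga9 (-0.34, SE 0.25) did not pass. Itga11, at 10.66 and 11.53 in the MEF arrays, differed by -3.76 (SE 0.63) and Itga1 by -2.68 (SE 0.34). Itga2, below background on all iPSC arrays, was at least 1.14-fold lower. Itga5 differed by -2.40 (SE 0.26) and Itga8 by -2.41 (SE 0.28). The muscle laminin receptor subunit Itga7 gave -1.78 (SE 0.12) and Itga4 gave -0.79 (SE 0.20). Itgad also passed, but it lay below background on every array.

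The beta subunits that passed were all lower in iPSC. Their differences were -2.48 (SE 0.24) for Itgb3, -1.89 (SE 0.13) for Itgb5, -1.67 (SE 0.20) for Itgb1 and -1.29 (SE 0.24) for Itgb8. Itgb1 stood at 12.47 in WT MEF and 12.13 in KO MEF, above all 4 iPSC arrays. Itgb4 (0.38, SE 0.16) and Itgb7 (0.73, SE 0.33) did not pass. Itga6 was the only integrin gene called higher in iPSC, at 10.71 to 11.004 on the 4 arrays against 10.09 in WT MEF and 9.03 in KO MEF (1.33, SE 0.27, limma adjusted p = 0.0169).

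Laminin chains split by type. Lama1 rose by 2.62 (SE 0.14), from 6.82 and 6.99 in MEF to 9.35 to 9.75 in iPSC, and Lama5 by 1.43 (SE 0.33), Lama3 by 0.88 (SE 0.11) and Lamc1 by 0.40 (SE 0.08). Lama4 (-3.88, SE 0.63) and Lama2 (-2.84, SE 0.14) fell, both standing close to background in iPSC. The beta chains Lamb1 (-2.65, SE 0.52) and Lamb2 (-1.91, SE 0.20) fell. The alpha chains known from embryonic basement membranes were thus higher in iPSC and those known from muscle and vessels higher in MEF.

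**Figure D4:**
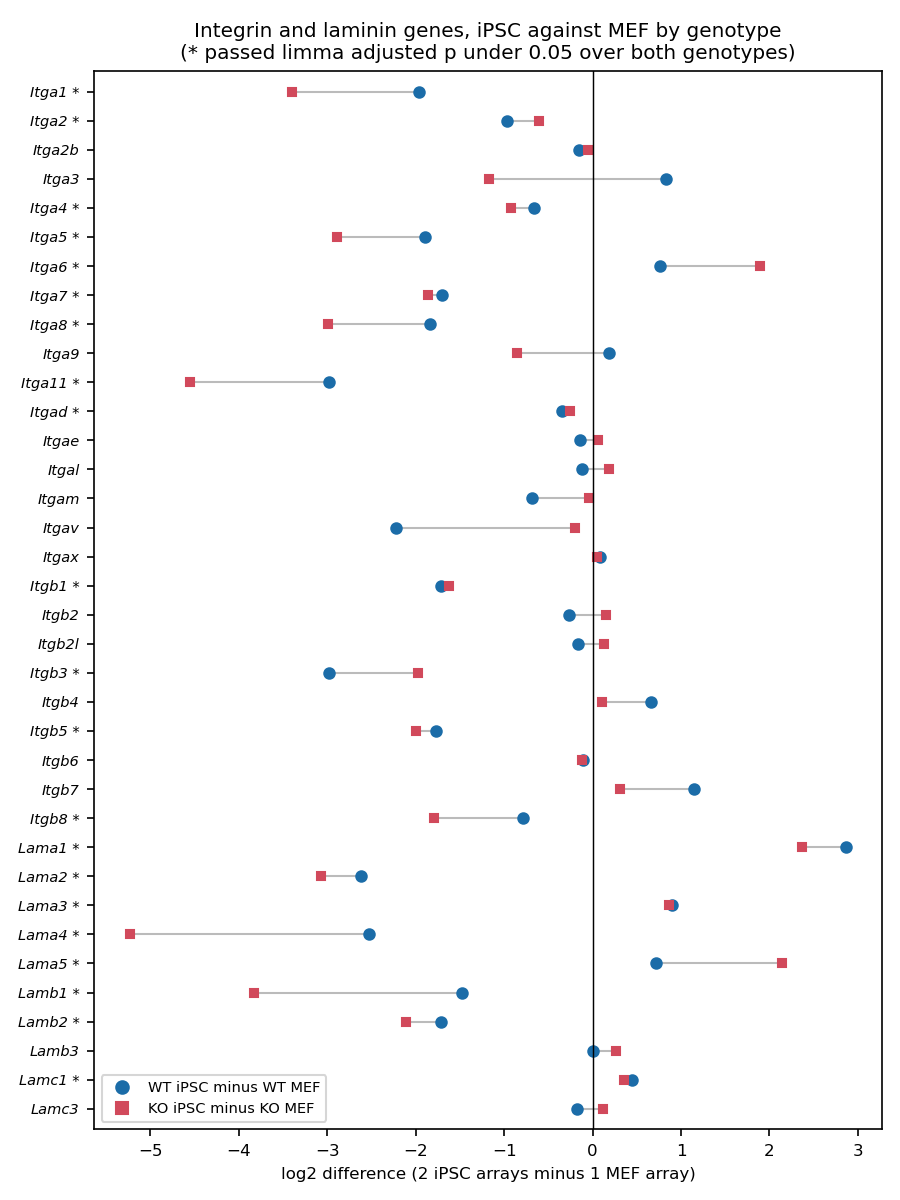
Difference of log2 intensity between iPSC and MEF for each of the 36 genes, as the mean of 2 iPSC arrays less 1 MEF array, drawn for WT (circles) and KO (squares), with a star at genes that passed over both genotypes. Itga3 lies at 0.83 in WT and -1.17 in KO, and Itgav, Lama4 and Lamb1 have the widest gaps between the genotypes.

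The cell type differences are given by genotype for genes where they were far apart. Itga3 differed by 0.83 between WT iPSC and WT MEF and by -1.17 between KO iPSC and KO MEF, and over both it did not pass (-0.17, SE 0.50). The difference between the genotypes was tested as the interaction described further on. It did not pass for Itga3 (limma adjusted p = 0.0739) and passed for Itgav, Lamb1 and Lama4. The iPSC to MEF difference of Itgav was -2.225 in WT and -0.19 in KO (-1.21 over both, SE 0.48, limma adjusted p = 0.124). That of Lamb1 was -1.47 in WT and -3.82 in KO, and that of Lama4 -2.53 in WT and -5.23 in KO. Lama4 lay below background on both KO iPSC arrays, so its size in KO was not measured. Without KO iPSC replicate 1, 13 of the 36 genes passed, beside 20.5% of all genes. Itga2, Itga4, Itga6, Itgad, Itgb8, Lama5, Lamb1 and Lamc1 then did not pass (limma adjusted p = 0.0512 to 0.11). Of these 8, all but Itgb8 also missed without KO iPSC replicate 2. Itga2, Itga4 and Itgad missed when either MEF array was left out. Itgav, Itgam and Itgb4 passed without KO MEF and Itga9 without WT MEF. Itga4, Itga6, Itgad and Lama5 missed without WT iPSC replicate 2, and Itgad also without WT iPSC replicate 1.

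The fibroblast pair has 1 array per genotype, so the differences between KO MEF and WT MEF are values with no test. At least 2-fold differences were seen in 5 of the 36 genes, against 4.56% of all genes, 2 of them higher and 3 lower in KO MEF (2.80% and 1.77% of all genes). The vessel laminin chain Lama4 stood at 9.07 in WT MEF and 11.47 in KO MEF (2.40), and Itga8 at 8.13 and 9.86 (1.72). Itgb3 stood at 10.47 and 8.91 (-1.56), Itga5 at 12.62 and 11.37 (-1.25) and Itga6 at 10.09 and 9.03 (-1.06). Itga5 was thus lower in KO in fibroblasts as well as in iPSC, whereas Lamb1 was 0.26 higher in KO MEF. Itgav, higher in KO iPSC, gave -0.81 in MEF. Between WT MEF and KO MEF the summed intensity of the 7 megakaryocyte and platelet markers went from 4476 to 1085. That of the 13 macrophage and leukocyte markers went from 4451 to 2394 and that of the 23 fibroblast markers from 86559 to 113058. The medians of these lists were 6.42 and 6.33, 7.85 and 7.17, and 11.28 and 12.19. Only 3 of the 7 platelet markers lay above background on each MEF array, so that sum rests on few genes. The part of these markers in the MEF differences was not tested.

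Whether the genotype difference itself differed between iPSC and MEF was tested as an interaction in a fit of all 7 arrays. Of the 36 genes 7 passed, 3 with a positive and 4 with a negative value (19.4%, against 8.55% of all genes, 3.07% positive and 5.48% negative). With median-centred arrays 4 were positive and 3 negative. Lamb1 gave -2.35 (SE 0.16, limma adjusted p = 0.00582), made of -2.09 in iPSC and 0.26 in MEF. Lama4 gave -2.697 (SE 0.44), made of -0.29 in iPSC, where it was near background, and 2.40 in MEF. Itgav gave 2.03 (SE 0.38), made of 1.22 and -0.81, and Lama5 1.43 (SE 0.24), made of 1.15 and -0.27.

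The remaining ones were alpha subunits. Itga1 gave -1.44 (SE 0.25), made of a fitted -1.06 in iPSC and 0.38 in MEF. Both KO iPSC values of Itga1 lay below background, so its iPSC part is measured only as at least 1.19-fold lower and the size of its interaction is not measured. Itga6 gave 1.13 (SE 0.21), made of 0.07 and -1.06, and Itga9 -1.05 (SE 0.19), made of -0.97 and 0.08. Itga9 missed with median centring (limma adjusted p = 0.0582) and both Itga9 and Itgav with quantile normalization (0.0517 and 0.0528), and Itgav also missed with a trend and robust variance (0.0584). Itga5, lower in KO in both cell types, gave -0.996 (SE 0.27, limma adjusted p = 0.0946), and Itga3 -2.00 (SE 0.48, limma adjusted p = 0.0739), and neither passed. Each MEF group is a single array whose spread is taken from the iPSC groups. With 1 KO iPSC array left out, nearly all of these calls were lost and far fewer of all genes passed. With 1 WT iPSC array left out, more members and more of all genes passed. These shifts say nothing particular about the 36 genes.

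**Figure D5:**
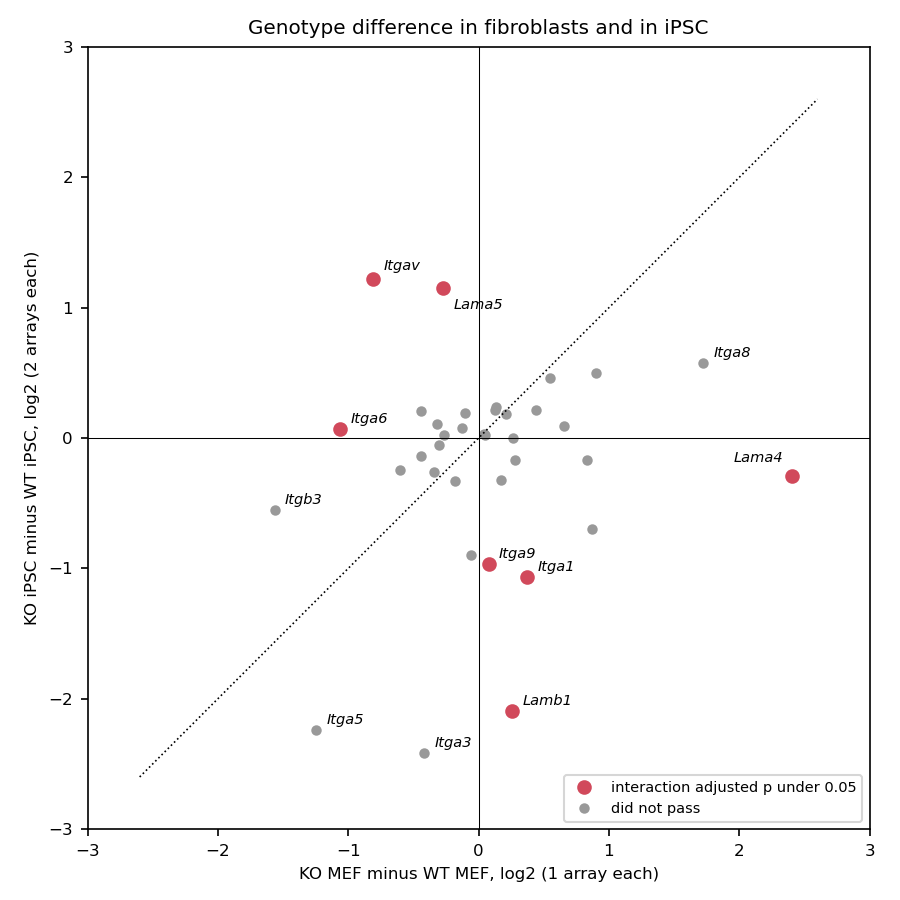
Each point is 1 of the 36 genes, with the log2 difference of KO MEF less WT MEF (1 array each) on the horizontal axis and of KO iPSC less WT iPSC (2 arrays each) on the vertical axis. The dotted line marks equal differences. Lamb1 and Itgav lie far from it and passed the interaction test, while Itga5 lies in the lower left with lower values in KO in both cell types.

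Genes that work with integrins and laminins were counted from 5 lists, in KO iPSC against the WT pluripotent arrays. Their calls were not examined with an array left out. Of 30 focal adhesion adapters and kinases 4 rose and 7 fell (median -0.17). The adapter Bcar1 (-1.64, SE 0.22), the kinase Ptk2b (-1.56, SE 0.13) and the actin cross-linker Flna (-1.27, SE 0.09) were among those that fell. The kindlin Fermt1, which binds integrin beta tails, also passed. It stood at 6.54, 6.35 and 7.03 in the WT pluripotent arrays, the middle value below background, and at 5.37 and 5.34 in KO iPSC, both below it, so the size of its difference was not measured. Of 16 integrin regulators and tetraspanins 1 rose, the tetraspanin Cd63 (1.09, SE 0.16), and 2 fell. These 2 were Tspan4 (-0.89, SE 0.09) and the integrin-associated protein Cd47 (-0.72, SE 0.17, limma adjusted p = 0.0451).

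Of 12 laminin receptors that are not integrins, and their partners, 1 rose and 4 fell (median -0.29). Bcam, a receptor of laminins with the alpha 5 chain, stood at 10.73 in WT ESC, 10.74 and 11.04 in the WT iPSC pair, 7.94 and 8.24 in KO iPSC, 7.81 in WT MEF and 7.84 in KO MEF. The KO iPSC values were near those of fibroblasts, 6.73-fold below the WT pluripotent arrays (-2.75, SE 0.14, limma adjusted p = 0.000639), while its ligand chain Lama5 was higher. Among the syndecans, Sdc4 was higher (1.96, SE 0.10) and Sdc2 lower (-1.58, SE 0.39, limma adjusted p = 0.0471). Sdc2 stood at 9.61 in WT ESC, 10.325 and 8.94 in the WT iPSC pair and 7.925 and 8.17 in KO iPSC. It was higher still in WT MEF (11.82) and KO MEF (11.84). The sarcoglycan Sgcb was 2.01-fold lower (SE 0.12 on the log2 scale).

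Of 22 basement membrane partners of laminin 2 rose and 2 fell (median 0.09). Netrin Ntn1 (1.86, SE 0.15) and the laminin-binding nidogen Nid2 (0.42, SE 0.10, limma adjusted p = 0.0424) rose. The collagen Col18a1 (-1.27, SE 0.12) and perlecan, Hspg2 (-1.14, SE 0.16), fell. Of 24 integrin ligands other than laminins 1 rose and 5 fell (median -0.10). Thbs1 (-3.16, SE 0.53), Col1a1 (-2.44, SE 0.58, limma adjusted p = 0.0427) and the latent growth factor Tgfb1 (-1.48, SE 0.16) fell. The junction protein Jam3 rose (1.55, SE 0.16). Thbs1 and Col1a1 were highest among the WT pluripotent arrays in WT iPSC replicate 1 and higher still in MEF. These lists passed in 36.7%, 18.8%, 41.7%, 18.2% and 25.0% of their genes in the order given, against 15.7% of all genes. In iPSC against MEF, where 30.7% of all genes passed, 1 of the 30 focal adhesion genes was higher and 17 lower, 1 of the 16 regulators higher and 7 lower, 0 of the 12 laminin receptors higher and 7 lower, 3 of the 22 basement membrane partners higher and 10 lower, and 3 of the 24 other ligands higher and 11 lower.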

How the data were processed

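The deposited values are linear intensity values of probe sets, and the submitters' processing notes name RMA and Affymetrix Expression Console (version 1.3.0.187) as the tools the authors used. Their log2 was taken here, with no further normalization. The genome build is not given in the sources used here. Of 33649 probe sets, the platform annotation gives 23521 exactly 1 symbol and 1814 several, and the others are unnamed here. Where a gene had several probe sets, the brightest on average was kept, and among the 36 members only Itgav had more than 1. All 36 matched a RefSeq gene. No column belonged to other samples (0), and no dim gene was left out.

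Groups came from the sample titles. Differences were tested by limma (version 3.58.1, R 4.3.3), two-sided, with lmFit and eBayes and with Benjamini-Hochberg adjustment over 22180 genes and a threshold of 0.05. KO iPSC against WT pluripotent used 5 arrays, iPSC against MEF an additive fit of 6 arrays with genotype, and the other tests a fit of all 7 with 1 coefficient per group. The SE given with a difference is the fit's standard error. The fits were tested on simulated data. A lower bound (at least) sets the brighter mean against the mean background of the dim arrays where all of those lay below it. The members, the gene lists and the tests were chosen with earlier results of these data known. Every member is named, and of each list at most the 4 called genes with the largest difference in the central comparison. An array has no read depth, so the number of arrays limits the precision.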

Additional observations from a re-analysis of the deposited data

Results flagged for a closer look

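For 7 of the 36 genes (19.4%) the difference between KO and WT was not the same in iPSC and in MEF. The test was the interaction in limma over all 7 arrays. In it 8.55% of all genes passed, 3.07% with a positive and 5.48% with a negative value. The interaction, as the log2 difference in iPSC less that in MEF, was -2.7 for Lama4, -2.35 for Lamb1, 2.03 for Itgav, -1.44 for Itga1, 1.43 for Lama5, 1.13 for Itga6 and -1.05 for Itga9. In each of the 7 the sign in iPSC was opposite to that in MEF. Choosing genes by a large interaction favours opposite signs, so this is no separate finding. The smaller side was 0.07 for Itga6 and -0.29 for Lama4, both in iPSC. In MEF it was 0.08 for Itga9, 0.26 for Lamb1, -0.27 for Lama5, 0.38 for Itga1 and -0.81 for Itgav. Each MEF group is 1 array. Nearly all of the 7 calls were lost when 1 KO iPSC array was left out, as were most calls over all genes. Itga1 and Lama4 lay below background on both KO iPSC arrays, so the sizes of their interactions are fitted values only.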

How the results depend on the processing

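The number of the 36 genes that passed was within 1.5 times the reported number in each comparison after median centring, quantile normalization, a trend and robust variance, leaving out the dimmest 0.333 of genes, and averaging the probe sets of a gene. With the KO iPSC arrays counted as 1 sample, 2 genes passed against the WT pluripotent arrays in place of 7, namely Itga5 and Lamb1. Leaving out 1 array gave 2 to 11 genes in that comparison, 2 to 15 for KO against WT iPSC, 0 to 7 for WT ESC against WT iPSC, 13 to 21 for iPSC against MEF and 0 to 17 for the interaction, and with fewer arrays fewer or more of all genes passed too (1.54% to 18.8% in the first). Itga11 in WT ESC less WT iPSC changed sign, from 1.18 without WT iPSC replicate 1 to -0.79 without WT iPSC replicate 2, and the cause was not tested. It was the only reversal among genes that passed in some setting. WT ESC could not be left out where it is a group by itself. Replicate numbers are shared by WT and KO iPSC but nothing pairs them, and the deviations of same-numbered arrays correlated at 0.0166 over genes. With the replicate number as a block, 8 genes passed for KO against WT iPSC, 18 for iPSC against MEF and 7 for the interaction. The block lost Itgb3 (limma adjusted p = 0.0585) in the first, Itgad (0.098), Lama5 (0.0633) and Lamc1 (0.0504) in the next, and Itga6 (0.0542) and Itga9 (0.058) in the interaction, where Itga3 and Itgb8 came in and 5 of the 7 were shared. The background correction could not be varied, since scanner files were not analysed here. Signal over background limits the 7 genes that passed it on some arrays and the 5 that passed it on none.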
